A study of Mus musculus with 8 samples.

Results

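The genes of cholesterol synthesis, together with the SREBP2 control genes and the genes of sterol uptake, transport, efflux and esterification, were compared between livers that carry Cre recombinase under the albumin promoter and livers that do not. They are 30 named genes, 20 pathway enzymes and 10 regulators or transport genes, found by symbol among the 13703 rows of the deposited table. Each of the 30 had a single row and a mean of at least 0.5 FPKM over the 8 libraries, so all 30 were among the 11077 rows tested. FPKM is the number of sequenced fragments scaled by the length of the gene and by the size of the library, so levels can be compared between genes of a library. Summed FPKM was 438797 to 442133 in Alb-Cre replicates 1 to 3 and 399282 to 410679 in the other 5 libraries, and comparisons between libraries carry that difference.

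The mice of both groups carried loxP-flanked Bicd2 (Bicd2fl/fl) and are labelled Alb-Cre Bicd2fl/fl (4 libraries) and Alb-WT Bicd2fl/fl (4 libraries). Albumin-driven Cre acts in hepatocytes, and which other liver cells kept or lost the gene was not measured here. Bicd2 encodes an adaptor between dynein and its cargo. Both groups also went through a model of autoimmune hepatitis (S-100 induced AIH): a liver homogenate supernatant called S-100, emulsified in complete Freund's adjuvant, was injected intraperitoneally in weekly doses of 2.5 mg over 3 weeks, and the liver was collected 2 weeks later. No liver without S-100 was analysed here. The labels used here give no strain, sex or age, and none states that the libraries came from separate animals, so p-values reflect only how far these libraries differ, which may be technical.

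Cholesterol is built from acetyl-CoA. Acetyl-CoA is joined to HMG-CoA, reduced to mevalonate and turned into farnesyl diphosphate, which is either condensed to squalene, cyclised to lanosterol and trimmed to cholesterol, or diverted to non-sterol isoprenoids. SREBP2, encoded by Srebf2, is a transcription factor held in the endoplasmic reticulum membrane by SCAP and INSIG proteins when sterols are plentiful. When sterols run low, SCAP carries it to the Golgi, where it is cut and freed to switch on genes of synthesis and uptake. Sterol excess instead activates the LXR nuclear receptors, whose known targets include Abca1, Abcg5, Abcg8 and Mylip. In liver, ABCG5 and ABCG8 move sterols into bile.

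The listed genes held between 32524927 and 38893858 recovered fragments in a library, and the members had between 258 (Ggps1) and 26665 (Hmgcs1) fragments in a library. Bicd2 was lower in the 4 Alb-Cre libraries (0.628 ± 0.107 FPKM) than in the 4 Alb-WT libraries (2.85 ± 0.288 FPKM; SD, n = 4 each), with no overlap (two-sided exact permutation p = 0.0286, the smallest that 70 assignments allow). Alb-Cre replicate 4 stood apart. Across genes, its log2 values correlated with those of Alb-Cre replicates 1 to 3 at r = 0.958 to 0.960 and with the Alb-WT libraries at 0.974 to 0.977, against 0.995 to 0.996 among replicates 1 to 3, genes not being independent replicates. Counts and called values are therefore also given without it.

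Markers of other liver cells moved with genotype too. Of Kupffer cell and macrophage markers 8 of 8 were called lower in Alb-Cre, and their summed level was 139.7 to 151 FPKM in Alb-Cre replicates 1 to 3, 445 FPKM in replicate 4 and 507 to 539 FPKM in Alb-WT. Also lower were 3 of 4 monocyte, 5 of 5 neutrophil, 4 of 4 tested bile duct, 2 of 5 stellate and 2 of 5 sinusoidal endothelial markers. No T or B cell marker of 3 tested was called, and the summed level of that list was 1.18 to 1.64 FPKM in Alb-Cre replicates 1 to 3, 6.85 FPKM in replicate 4 and 3.65 to 4.29 FPKM in Alb-WT. Summed neutrophil markers were at 7.03 to 7.39 FPKM in Alb-Cre replicates 1 to 3, 86.4 FPKM in replicate 4 and 263 to 325 FPKM in Alb-WT, and bile duct markers at 36.2 to 41.0, 61.8 and 79.0 to 92.2 FPKM. The B cell marker Ms4a1 and the bile duct marker Krt7 were under 0.5 FPKM in every Alb-Cre library. Their Alb-WT levels are not given here, so this describes Alb-Cre only. Of 8 hepatocyte markers 1 was higher and 1 lower, with a summed level of 41198 to 42635 FPKM in Alb-Cre replicates 1 to 3, 30453 FPKM in replicate 4 and 38984 to 39621 FPKM in Alb-WT. In whole liver, fewer cells of a type and less RNA per cell cannot be told apart, and the part of these shifts in the results below was not tested.

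Most of the 20 listed enzymes were higher in Alb-Cre livers, and the regulators and transport genes were split. The list does not hold every enzyme of the pathway. Of the 20 enzymes 15 rose, 1 fell and 4 were not called. Of the 10 regulators and transport genes 3 rose, 3 fell and 4 were not called. Calls were made by limma on log2(FPKM + 1), with p adjusted by Benjamini-Hochberg over all tested rows and a threshold of 0.05. Over all those rows 8.48% were called higher and 23.3% lower. The median log2 fold change was 0.69 for the enzymes, -0.01 for the regulators and transport genes and -0.13 for all tested rows. Fold changes on this scale understate changes of genes with low values.

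Counted by overlap, all 4 Alb-Cre values lay above all 4 Alb-WT values for 17 of the 20 enzymes and 3 of the 10 others, and below them for 1 and 3. The share of all tested rows without overlap was 9.27% higher and 21.4% lower. Without Alb-Cre replicate 4, 17 enzymes were higher and 1 lower, and 3 regulators or transport genes were higher and 5 lower. In that fit 15.2% of all tested rows were called higher and 46.1% lower, 61.3% in all.

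**Figure D1:**
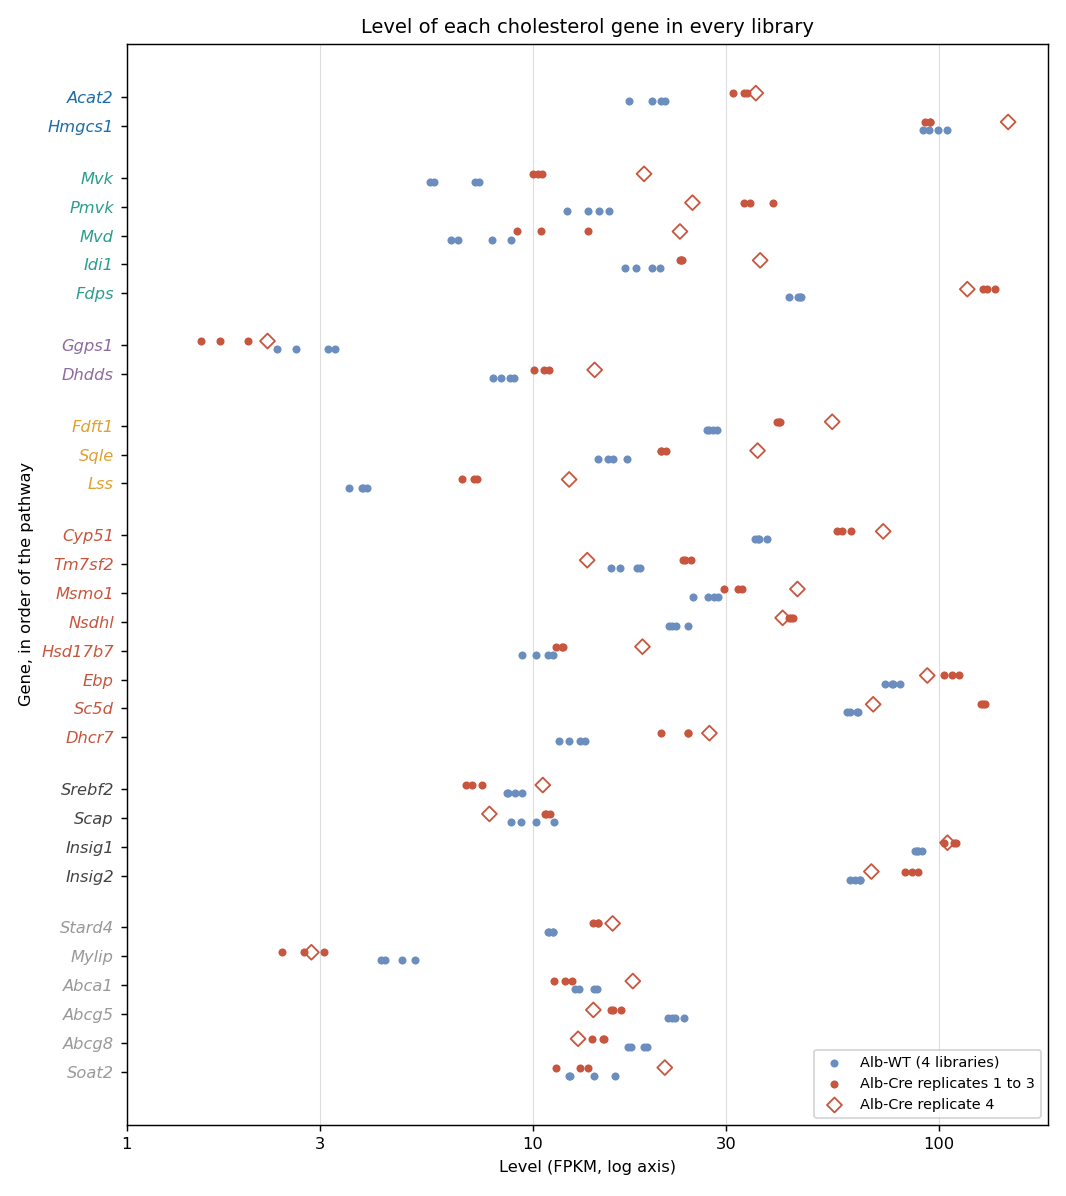
Level of each of the 30 genes in every library, in FPKM on a log axis, ordered by step of the pathway (label colours mark the steps). Blue points are the 4 Alb-WT libraries, filled red points Alb-Cre replicates 1 to 3 and open diamonds Alb-Cre replicate 4. The filled red points of 21 genes lie wholly to the right of the blue ones and those of 6 wholly to the left, and with the diamonds included 20 and 4 genes do.

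The balance of calls over all genes depends on scaling, which bears on how a member's change is read. Among all calls 73.3% were lower, against 82.9% after scaling to a common FPKM sum, 44.7% with median-of-ratios scaling, 49.3% with quantile normalization and 44.9% after correcting for gene length, an alternative that was added once the data had been seen. The log2 fold change of the median gene was -0.13, -0.19, 0.02, 0.02 and 0.02 in these. Of all 11077 tested rows 939, 623, 1874, 1522 and 1629 were called higher in the same order. Enzymes called higher numbered 15, 11, 18, 16 and 17 of 20, so both counts were lowest and highest in the same settings. The median log2 fold change of the enzymes stayed between 0.60 and 0.88 over the alternatives that kept all 8 libraries.

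**Figure D2:**
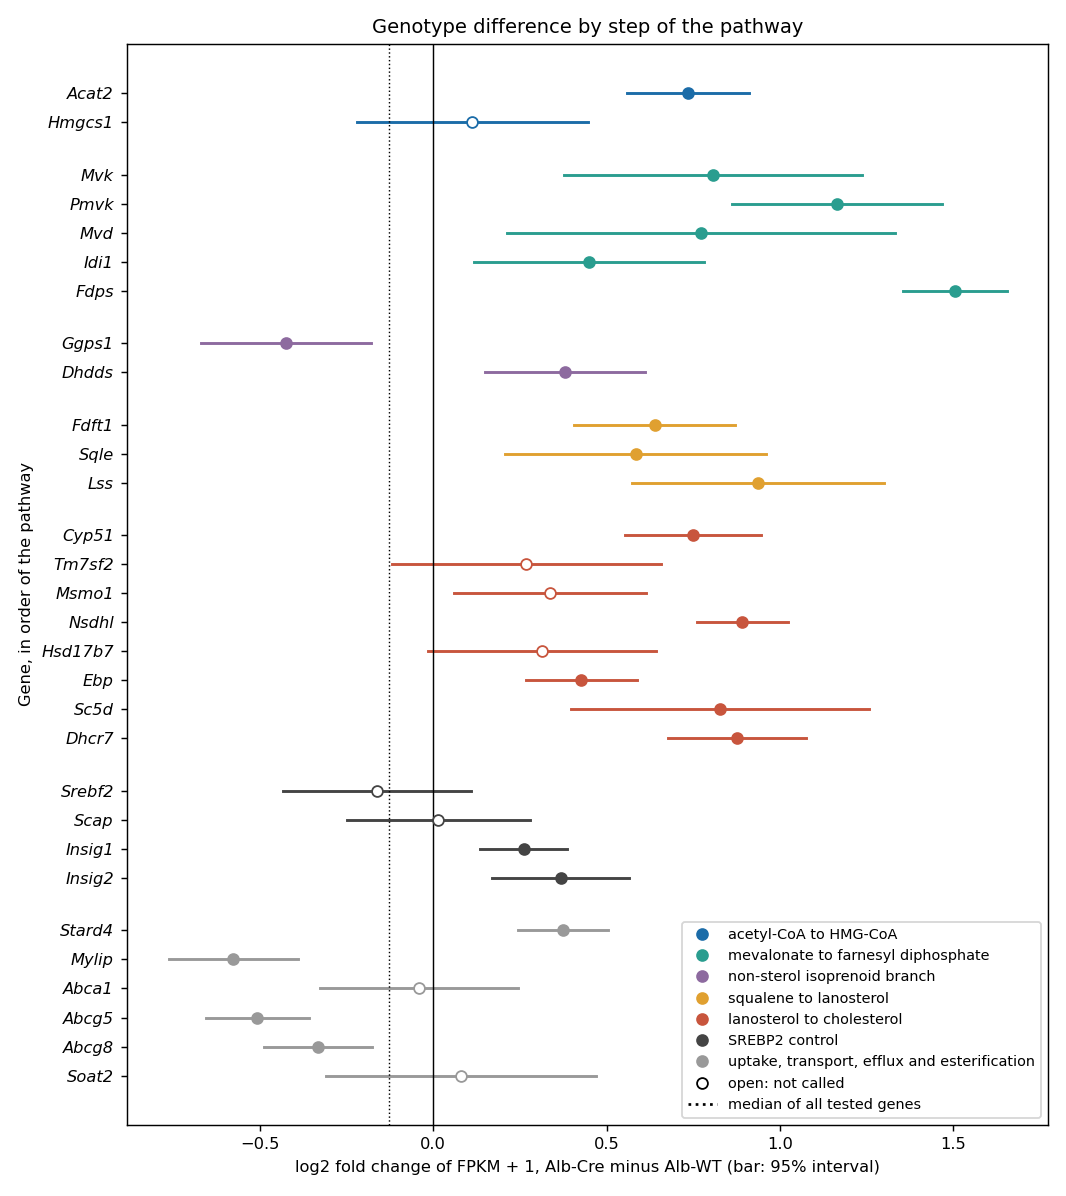
Log2 fold change of FPKM + 1, Alb-Cre minus Alb-WT, for each of the 30 genes with its 95% interval from limma. Filled points were called and open points were not, colours mark the steps, and the dotted line is the median of all tested genes at -0.13. The 15 filled enzyme points to the right of 0 span 0.38 to 1.50.

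Promoter sequences were at hand for 25 of the 30 members, as 32 stretches of 250 bases that end just before an annotated start (RefSeq, GRCm38.p6). No entry was found for Fdps, Fdft1, Sqle, Stard4 and Soat2. SREBPs bind sterol regulatory elements, usually beside NF-Y and Sp1, so the letters TCACNCCAC, CCAAT and GGGCGG were searched on both strands. The element TCACNCCAC was in 1 of the 32 stretches, that of Hmgcs1, and in 1.05% of all 32851 promoters in the reference. With at most 1 mismatch among its fixed letters, a choice made after seeing the data, it was in 11 of 32, against 20.7% of all promoters. CCAAT was in 21 of 32, against 33.8% of all promoters and 35.2% of those of tested genes. GGGCGG was in 23 of 32, against 32.7% and 56.6%. No matches of different motifs overlapped in the members. A match describes letters and not a bound site, and letters that are missing from a stretch say nothing about the factor.

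Of the enzymes from acetyl-CoA to HMG-CoA, Acat2 rose and Hmgcs1 was not called. Acat2 encodes the cytosolic thiolase that makes acetoacetyl-CoA. Acat2 was at 33.8, 31.1, 33.2 and 35.4 FPKM in Alb-Cre replicates 1 to 4 and at 21.1, 17.2, 19.6 and 20.7 FPKM in Alb-WT replicates 1 to 4. All Alb-Cre values lay above all Alb-WT values, a 1.70-fold difference of the means (log2 fold change 0.74, SE 0.0779, limma adjusted p = 0.000544), and without replicate 4 the log2 fold change was 0.71 (limma adjusted p = 1.23e-05). Hmgcs1, which encodes HMG-CoA synthase, was among the most abundant of the members. Hmgcs1 stood at 95.4, 92.6, 95.1 and 148 FPKM in Alb-Cre and 105, 94.9, 99.7 and 91.6 FPKM in Alb-WT. Replicates 1 to 3 of Alb-Cre lay inside the Alb-WT range and replicate 4 was 1.57 times their mean. Its log2 fold change was 0.11 (95% interval -0.22 to 0.45, limma adjusted p = 0.567), -0.05 without replicate 4, -0.02 with quantile normalization, and called at 0.31 with median-of-ratios scaling (limma adjusted p = 0.0481). An annotated antisense transcript covers 12.1% of the exonic bases of Hmgcs1, and with the strand setting not given its reads cannot be told apart from those of the gene. The promoter of Hmgcs1 is shown because it is the only one of the members' stretches with the full element TCACNCCAC, which begins 137 bases before the start. Capitals mark that element, CCAAT and GGGCGG on either strand.
Hmgcs1, RefSeq GRCm38.p6, chr13:119690101-119690350, plus strand: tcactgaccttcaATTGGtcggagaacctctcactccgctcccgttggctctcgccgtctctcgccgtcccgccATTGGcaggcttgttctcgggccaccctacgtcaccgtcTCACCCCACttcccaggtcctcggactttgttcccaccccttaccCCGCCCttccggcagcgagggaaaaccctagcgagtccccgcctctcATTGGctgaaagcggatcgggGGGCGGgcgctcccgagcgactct

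All 5 enzymes from mevalonate to farnesyl diphosphate rose, with log2 fold changes from 0.45 to 1.50. Fdps encodes farnesyl diphosphate synthase, at the branch point to sterols. Fdps stood at 131, 129, 138 and 118 FPKM in Alb-Cre and 45.7, 45.5, 42.7 and 45.0 FPKM in Alb-WT. The Alb-Cre values lay far above the Alb-WT values in every library, a 2.88-fold difference of the means (log2 fold change 1.50, SE 0.0661, limma adjusted p = 9.42e-06) and the largest of the 30 members in the fit over all 8 libraries. Another protein-coding gene annotated on the same strand shares 26.7% of the exonic bases of Fdps, so that reads of that stretch could belong to either. Pmvk encodes the kinase that adds the next phosphate to mevalonate. Pmvk stood at 34.3, 33.1, 39.0 and 24.7 FPKM in Alb-Cre and 12.1, 14.6, 13.6 and 15.4 FPKM in Alb-WT. The groups did not overlap, although replicate 4 was lower than the other Alb-Cre libraries (2.35-fold, log2 fold change 1.16, SE 0.134, limma adjusted p = 0.000802). Without replicate 4 the log2 fold changes were 1.55 (limma adjusted p = 1.96e-09) for Fdps and 1.29 (limma adjusted p = 4.82e-07) for Pmvk.

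Mvk, Mvd and Idi1 showed the opposite place of replicate 4, as the highest library. Mvk encodes mevalonate kinase. Mvk stood at 10.0, 10.3, 10.5 and 18.8 FPKM in Alb-Cre and 7.20, 5.59, 5.73 and 7.38 FPKM in Alb-WT. Mvd encodes the decarboxylase that yields isopentenyl diphosphate. Mvd stood at 10.5, 9.13, 13.7 and 23.1 FPKM in Alb-Cre and 7.94, 6.54, 6.29 and 8.83 FPKM in Alb-WT. Idi1 encodes the isomerase that follows it. Idi1 stood at 23.3, 23.2, 23.0 and 36.3 FPKM in Alb-Cre and 19.7, 16.9, 20.6 and 18.0 FPKM in Alb-WT. In all 3 genes the Alb-Cre libraries lay above every Alb-WT library, but the margin was narrow in replicates 1 to 3 for Mvd and Idi1. The means differed 1.92-fold for Mvk (log2 fold change 0.81, SE 0.190, limma adjusted p = 0.0159), 1.90-fold for Mvd (log2 fold change 0.77, SE 0.247, limma adjusted p = 0.0424) and 1.41-fold for Idi1 (log2 fold change 0.45, SE 0.146, limma adjusted p = 0.0453). Without replicate 4 their log2 fold changes were 0.60 (limma adjusted p = 0.000242), 0.52 (limma adjusted p = 0.0069) and 0.29 (limma adjusted p = 0.00333).

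Leaving out a single library ended each of these 3 calls, and scaling ended those of Mvd and Idi1. Calls over all genes also fell when any 1 library other than Alb-Cre replicate 4 was left out. With all 8 libraries 939 were called higher and 2582 lower, against 546 to 753 and 1205 to 1527 in those fits. The call for Mvk was lost without Alb-WT replicate 3 (limma adjusted p = 0.0504). That for Mvd was lost on leaving out Alb-Cre replicate 1 or 3 or any 1 of the 4 Alb-WT libraries (limma adjusted p = 0.0577 to 0.107). That for Idi1 was lost on leaving out any 1 library other than Alb-Cre replicate 4 (limma adjusted p = 0.062 to 0.109). In the fits that ended these calls, the log2 fold change was 0.76 for Mvk, 0.71 to 0.88 for Mvd and 0.40 to 0.50 for Idi1. After scaling to a common FPKM sum Mvd and Idi1 were not called (limma adjusted p = 0.0729 and 0.127). The promoter of Mvk is shown for its 5 CCAAT matches, the most in any member's stretch, with capitals as for Hmgcs1.
Mvk, RefSeq GRCm38.p6, chr5:114444019-114444268, plus strand: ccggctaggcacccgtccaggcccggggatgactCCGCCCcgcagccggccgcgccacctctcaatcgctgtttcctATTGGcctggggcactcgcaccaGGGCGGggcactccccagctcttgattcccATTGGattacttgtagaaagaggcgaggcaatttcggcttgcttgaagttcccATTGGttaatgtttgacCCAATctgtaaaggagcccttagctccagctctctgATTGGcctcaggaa

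The enzymes of the non-sterol branch moved in opposite directions. Ggps1, which encodes geranylgeranyl diphosphate synthase, was the only enzyme of the 20 that fell. Ggps1 stood at 2.00, 1.70, 1.53 and 2.22 FPKM in Alb-Cre and 3.13, 2.61, 3.25 and 2.35 FPKM in Alb-WT. Every Alb-Cre library was below every Alb-WT library, but Alb-Cre replicate 4 and Alb-WT replicate 4 nearly met (1.52-fold lower, log2 fold change -0.42, SE 0.108, limma adjusted p = 0.0207). Dhdds encodes a subunit of the transferase that makes the dolichol precursor. Dhdds stood at 10.1, 11.0, 10.7 and 14.2 FPKM in Alb-Cre and 8.98, 7.98, 8.80 and 8.34 FPKM in Alb-WT. The Alb-Cre libraries were all higher, replicate 4 most of all (1.35-fold, log2 fold change 0.38, SE 0.102, limma adjusted p = 0.0245).

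Both calls of this branch were lost in some alternatives. In the fits where leaving out 1 library ended the call, the log2 fold change was -0.40 to -0.37 for Ggps1 and 0.35 to 0.40 for Dhdds. Calls over all genes were also fewer in those fits. That for Ggps1 was lost without Alb-Cre replicate 2 or 3 or Alb-WT replicate 1 or 3 (limma adjusted p = 0.0547 to 0.0625), with quantile normalization (limma adjusted p = 0.105) and after the length correction (limma adjusted p = 0.0552). That for Dhdds was lost without any 1 of the 4 Alb-WT libraries (limma adjusted p = 0.0529 to 0.066) and after scaling to a common FPKM sum (limma adjusted p = 0.0974). Without Alb-Cre replicate 4 the log2 fold changes were -0.48 (limma adjusted p = 0.00164) for Ggps1 and 0.28 (limma adjusted p = 0.00213) for Dhdds.

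All 3 enzymes from farnesyl diphosphate to lanosterol rose, and Alb-Cre replicate 4 was the highest library for each. Fdft1 encodes squalene synthase, the first step committed to sterols. Fdft1 stood at 39.9, 40.5, 40.3 and 54.7 FPKM in Alb-Cre and 27.9, 27.2, 28.4 and 26.8 FPKM in Alb-WT. Sqle encodes squalene epoxidase, a rate-controlling oxygenase. Sqle stood at 21.3, 20.7, 20.7 and 35.8 FPKM in Alb-Cre and 17.1, 14.5, 15.3 and 15.8 FPKM in Alb-WT. Lss encodes the cyclase that forms lanosterol. Lss stood at 7.15, 6.71, 7.28 and 12.3 FPKM in Alb-Cre and 3.91, 3.81, 3.80 and 3.53 FPKM in Alb-WT. The groups did not overlap for any of the 3, and Alb-Cre replicates 1 to 3 agreed closely with each other. The means differed 1.59-fold for Fdft1 (log2 fold change 0.64, SE 0.103, limma adjusted p = 0.00373), 1.57-fold for Sqle (log2 fold change 0.58, SE 0.166, limma adjusted p = 0.0293) and 2.22-fold for Lss (log2 fold change 0.94, SE 0.160, limma adjusted p = 0.0049). Without replicate 4 the log2 fold changes were 0.53 (limma adjusted p = 3.22e-06), 0.40 (limma adjusted p = 0.000218) and 0.76 (limma adjusted p = 2.06e-06).

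The call for Sqle was lost without Alb-Cre replicate 1 or any 1 of the 4 Alb-WT libraries (limma adjusted p = 0.0513 to 0.0734). In those fits its log2 fold change was 0.55 to 0.64. The call was also lost after scaling to a common FPKM sum (limma adjusted p = 0.0717). Fdft1 shares 18.3% of its exonic bases with Ctsb, a lysosomal protease gene on the opposite strand, and reads of the shared stretch cannot be told apart without the strand setting.

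Of the 8 listed enzymes that take part in turning lanosterol into cholesterol 5 rose and 3 were not called. Cyp51 encodes lanosterol demethylase, which opens this stage. Cyp51 stood at 60.8, 56.1, 57.8 and 73.0 FPKM in Alb-Cre and 36.1, 37.7, 35.9 and 35.3 FPKM in Alb-WT. Nsdhl encodes a sterol dehydrogenase that takes part in removing methyl groups. Nsdhl stood at 42.8, 43.8, 43.3 and 41.3 FPKM in Alb-Cre and 21.7, 22.5, 22.0 and 24.2 FPKM in Alb-WT. Dhcr7 encodes the reductase of the last step of a main route to cholesterol. Dhcr7 stood at 24.2, 20.8, 24.1 and 27.2 FPKM in Alb-Cre and 12.3, 13.5, 11.6 and 13.1 FPKM in Alb-WT. For these 3 genes the Alb-Cre libraries were all above the Alb-WT libraries, with replicate 4 close to the others for Nsdhl. The means differed 1.71-fold for Cyp51 (log2 fold change 0.75, SE 0.0863, limma adjusted p = 0.000805), 1.89-fold for Nsdhl (log2 fold change 0.89, SE 0.0581, limma adjusted p = 6.74e-05) and 1.91-fold for Dhcr7 (log2 fold change 0.88, SE 0.0883, limma adjusted p = 0.000446). These 3 calls held in all 17 alternatives, and without replicate 4 the log2 fold changes were 0.67 (limma adjusted p = 9.96e-07), 0.91 (limma adjusted p = 1.52e-07) and 0.82 (limma adjusted p = 4.29e-06). The promoter of Nsdhl is shown because Nsdhl had the largest log2 fold change of this stage over all 8 libraries, with its 2 CCAAT matches and 1 GGGCGG match in capitals.
Nsdhl, RefSeq GRCm38.p6, chrX:72918271-72918520, plus strand: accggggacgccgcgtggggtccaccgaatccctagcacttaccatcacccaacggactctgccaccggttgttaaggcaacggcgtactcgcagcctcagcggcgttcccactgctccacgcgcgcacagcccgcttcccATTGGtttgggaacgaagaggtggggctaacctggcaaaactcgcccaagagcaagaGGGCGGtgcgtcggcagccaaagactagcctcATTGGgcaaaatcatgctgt

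Ebp and Sc5d rose with replicate 4 as the lowest Alb-Cre library. Ebp encodes a sterol isomerase. Ebp stood at 108, 103, 112 and 93.7 FPKM in Alb-Cre and 76.6, 77.3, 73.7 and 80.4 FPKM in Alb-WT. Sc5d encodes a sterol desaturase. Sc5d stood at 129.8, 127, 128 and 69.0 FPKM in Alb-Cre and 63.2, 59.6, 63.1 and 60.3 FPKM in Alb-WT. Replicates 1 to 3 of Alb-Cre held 128 FPKM of Sc5d on average, whereas replicate 4 lay just above the highest Alb-WT library. The means differed 1.35-fold for Ebp (log2 fold change 0.43, SE 0.0711, limma adjusted p = 0.00428) and 1.84-fold for Sc5d (log2 fold change 0.83, SE 0.190, limma adjusted p = 0.0146), and without replicate 4 the log2 fold changes were 0.48 (limma adjusted p = 1.34e-05) and 1.05 (limma adjusted p = 1.71e-08).

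Tm7sf2, Msmo1 and Hsd17b7 were the members of this stage that were not called. For Tm7sf2, a sterol reductase gene, Alb-Cre replicates 1 to 3 held 23.5 to 24.5 FPKM, replicate 4 held 13.6 FPKM and Alb-WT held 15.6 to 18.4 FPKM, so that replicate 4 lay below and the others above every Alb-WT library. Its log2 fold change was 0.27 (95% interval -0.12 to 0.66, limma adjusted p = 0.242) and 0.46 (limma adjusted p = 0.000125) without replicate 4. Msmo1, a methylsterol oxidase gene, ranged from 29.6 to 32.8 FPKM in Alb-Cre replicates 1 to 3, with 44.9 FPKM in replicate 4 and 24.8 to 28.5 FPKM in Alb-WT. Hsd17b7, a ketosteroid reductase gene, ranged from 11.4 to 11.9 FPKM, with 18.6 FPKM in replicate 4 and 9.40 to 11.3 FPKM in Alb-WT. Vps51, annotated on the same strand, shares 12.1% of the exonic bases of Tm7sf2. Msmo1 and Hsd17b7 had groups without overlap, yet replicates 1 to 3 were only slightly above Alb-WT.

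The log2 fold change of Msmo1 was 0.34 (95% interval 0.06 to 0.61, limma adjusted p = 0.0622), and it was called without replicate 4 at 0.21 (limma adjusted p = 0.0121). That of Hsd17b7 was 0.31 (95% interval -0.02 to 0.64, limma adjusted p = 0.122), and 0.16 (limma adjusted p = 0.0566) without replicate 4. Both were called with median-of-ratios scaling (limma adjusted p = 0.0031 and 0.00777), with voom on recovered fragments (limma adjusted p = 0.00482 and 0.0117) and after the length correction (limma adjusted p = 0.00438 and 0.0127). Hsd17b7 was also called with quantile normalization (limma adjusted p = 0.0394).

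**Figure D3:**
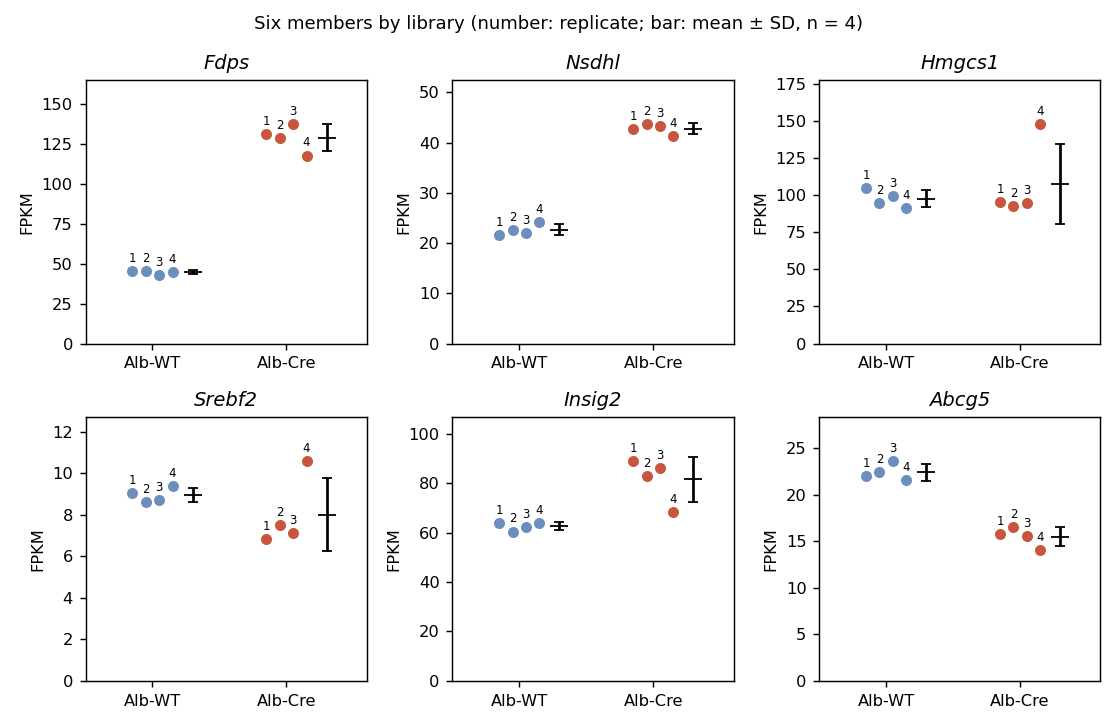
FPKM by library for 6 members on linear axes from 0, with Alb-WT in blue and Alb-Cre in red. Numbers give the replicate, and the bar beside each group is the mean ± SD (n = 4). Fdps, Nsdhl and Insig2 are higher and Abcg5 lower in every Alb-Cre library, whereas for Hmgcs1 and Srebf2 replicate 4 lies above and replicates 1 to 3 lie within or below the Alb-WT values.

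The 4 SREBP2 control genes split, with both INSIG genes higher and neither Srebf2 nor Scap called. Srebf2 stood at 6.85, 7.50, 7.10 and 10.6 FPKM in Alb-Cre and 9.06, 8.63, 8.71 and 9.41 FPKM in Alb-WT. Alb-Cre replicates 1 to 3 lay below every Alb-WT library and replicate 4 above every one. The log2 fold change was -0.16 (95% interval -0.43 to 0.11, limma adjusted p = 0.315), and without replicate 4 Srebf2 was called lower at -0.29 (limma adjusted p = 0.0014). It was 0.01 with median-of-ratios scaling and 0.03 after the length correction, neither called. Scap encodes the escort of SREBP2. Scap stood at 10.7, 10.8, 11.1 and 7.82 FPKM in Alb-Cre and 8.84, 9.37, 10.2 and 11.3 FPKM in Alb-WT. Replicate 4 was the lowest of all 8 libraries and the others overlapped Alb-WT (log2 fold change 0.01, 95% interval -0.25 to 0.28, limma adjusted p = 0.934), and without replicate 4 the log2 fold change was 0.12 (limma adjusted p = 0.186). A transcript of unsettled type annotated on the opposite strand covers 13.2% of the exonic bases of Scap.

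Insig1, itself a known target of SREBP2, and Insig2 encode the retention proteins. Insig1 stood at 110.0, 103, 109 and 105 FPKM in Alb-Cre and 91.0, 88.9, 88.6 and 87.2 FPKM in Alb-WT. Insig2 stood at 88.9, 82.8, 86.1 and 68.3 FPKM in Alb-Cre and 64.0, 60.4, 62.1 and 63.9 FPKM in Alb-WT. Both genes were higher in every Alb-Cre library, Insig1 by 1.20-fold (log2 fold change 0.26, SE 0.0554, limma adjusted p = 0.011) and Insig2 by 1.30-fold (log2 fold change 0.37, SE 0.0871, limma adjusted p = 0.0162). For Insig2, replicate 4 was the lowest of the Alb-Cre libraries. Without it the log2 fold changes were 0.27 (limma adjusted p = 0.000362) and 0.45 (limma adjusted p = 1.31e-05). The call for Insig1 was lost after scaling to a common FPKM sum (limma adjusted p = 0.0607) and with quantile normalization (limma adjusted p = 0.127), and that for Insig2 without Alb-Cre replicate 1 (limma adjusted p = 0.0502).

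Among the 6 genes of sterol uptake, transport, efflux and esterification 1 rose and 3 fell. Abcg5 and Abcg8 encode the partner proteins of the transporter that moves sterols into bile. Abcg5 stood at 15.8, 16.5, 15.6 and 14.1 FPKM in Alb-Cre and 22.0, 22.4, 23.6 and 21.6 FPKM in Alb-WT. Abcg8 stood at 14.9, 14.0, 15.0 and 12.9 FPKM in Alb-Cre and 18.8, 17.2, 19.1 and 17.4 FPKM in Alb-WT. Every Alb-Cre library, replicate 4 included, was below every Alb-WT library for both. Abcg5 was 1.45-fold lower (log2 fold change -0.51, SE 0.0657, limma adjusted p = 0.00147) and Abcg8 1.28-fold lower (log2 fold change -0.33, SE 0.0692, limma adjusted p = 0.0104). Without replicate 4 the log2 fold changes were -0.47 (limma adjusted p = 2.62e-05) and -0.29 (limma adjusted p = 0.00127). The call for Abcg5 held in all 17 alternatives, and that for Abcg8 was lost with median-of-ratios scaling (limma adjusted p = 0.315), with voom (limma adjusted p = 0.15) and after the length correction (limma adjusted p = 0.147). The pair lies head to head on chromosome 17, where 109 bases separate the starts used here. That stretch is shown because both genes were lower together, and none of the 3 searched motifs was in it. The full 250 bases before this start of Abcg8 held 2 CCAAT matches, which lie outside the stretch shown. A further annotated start of Abcg8 had none of the 3 motifs in its 250 bases.
Between Abcg5 and Abcg8, RefSeq GRCm38.p6, chr17:84683012-84683120, plus strand: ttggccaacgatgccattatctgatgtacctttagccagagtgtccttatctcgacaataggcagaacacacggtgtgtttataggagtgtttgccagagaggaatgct

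Mylip encodes a ubiquitin ligase that limits lipoprotein uptake and is the single member that acts on uptake. Mylip stood at 2.74, 2.41, 3.06 and 2.85 FPKM in Alb-Cre and 5.13, 4.33, 4.78 and 4.23 FPKM in Alb-WT. It was 1.67-fold lower in Alb-Cre (log2 fold change -0.58, SE 0.0822, limma adjusted p = 0.00228), with no overlap and with replicate 4 among the other Alb-Cre libraries. Stard4, which encodes a soluble sterol carrier and is a known target of SREBP2, went the other way. Stard4 stood at 14.5, 14.5, 14.1 and 15.7 FPKM in Alb-Cre and 10.9, 11.0, 11.2 and 11.2 FPKM in Alb-WT. It was 1.32-fold higher (log2 fold change 0.37, SE 0.0574, limma adjusted p = 0.00312), again with no overlap. Without replicate 4 the log2 fold changes were -0.59 (limma adjusted p = 0.00014) for Mylip and 0.34 (limma adjusted p = 0.000136) for Stard4. The call for Stard4 held in all 17 alternatives, and that for Mylip in all 16 that tested it.

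Abca1 and Soat2 were not called. Abca1 encodes a cholesterol exporter of many cell types, macrophages included, and the macrophage marker levels given above moved with genotype. Abca1 stood at 12.0, 12.5, 11.3 and 17.6 FPKM in Alb-Cre and 14.4, 13.0, 14.2 and 12.7 FPKM in Alb-WT. Alb-Cre replicates 1 to 3 lay below and replicate 4 above the Alb-WT libraries. The log2 fold change was -0.04 (95% interval -0.33 to 0.25, limma adjusted p = 0.821), and without replicate 4 Abca1 was called lower at -0.17 (limma adjusted p = 0.0321). The part of macrophage RNA in this value was not tested. Soat2, which encodes the cholesterol ester forming enzyme of hepatocytes, held 11.4 to 13.7 FPKM in Alb-Cre replicates 1 to 3, 21.2 FPKM in replicate 4 and 12.3 to 15.9 FPKM in Alb-WT (log2 fold change 0.08, 95% interval -0.31 to 0.47, limma adjusted p = 0.735).

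Members differed in where Alb-Cre replicate 4 stood relative to replicates 1 to 3. It was above all 3 for 18 of the 30 members and below them for 10, against 60.1% and 20.5% of all tested rows. The share above was thus near that of all rows. It was above every Alb-WT library for 18 of 20 enzymes and below every one for 2, Ggps1 and Tm7sf2, against 34.4% and 33.5% of all tested rows. Replicates 1 to 3 were together above every Alb-WT library for 18 of 20 enzymes and below every one for 1, against 14.6% and 46.0% of all tested rows. The median enzyme stood 0.50, 0.52, 0.58 and 0.83 above the Alb-WT mean in Alb-Cre replicates 1 to 4 on the log2(FPKM + 1) scale, and the median tested row differed from it by -0.16, -0.18, -0.15 and 0.01.

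By gene, the ratio of replicate 4 to the mean of replicates 1 to 3 ran from 0.537 for Sc5d and 0.570 for Tm7sf2 to 1.83 for Mvk and 2.08 for Mvd. Enzymes with ratios near 1 included Nsdhl (0.953), Acat2 (1.09) and Fdps (0.888), and these 3 were 1.89-fold, 1.70-fold and 2.88-fold higher in Alb-Cre. With a single library in this position, the difference within the group has no replicate check.

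**Figure D4:**
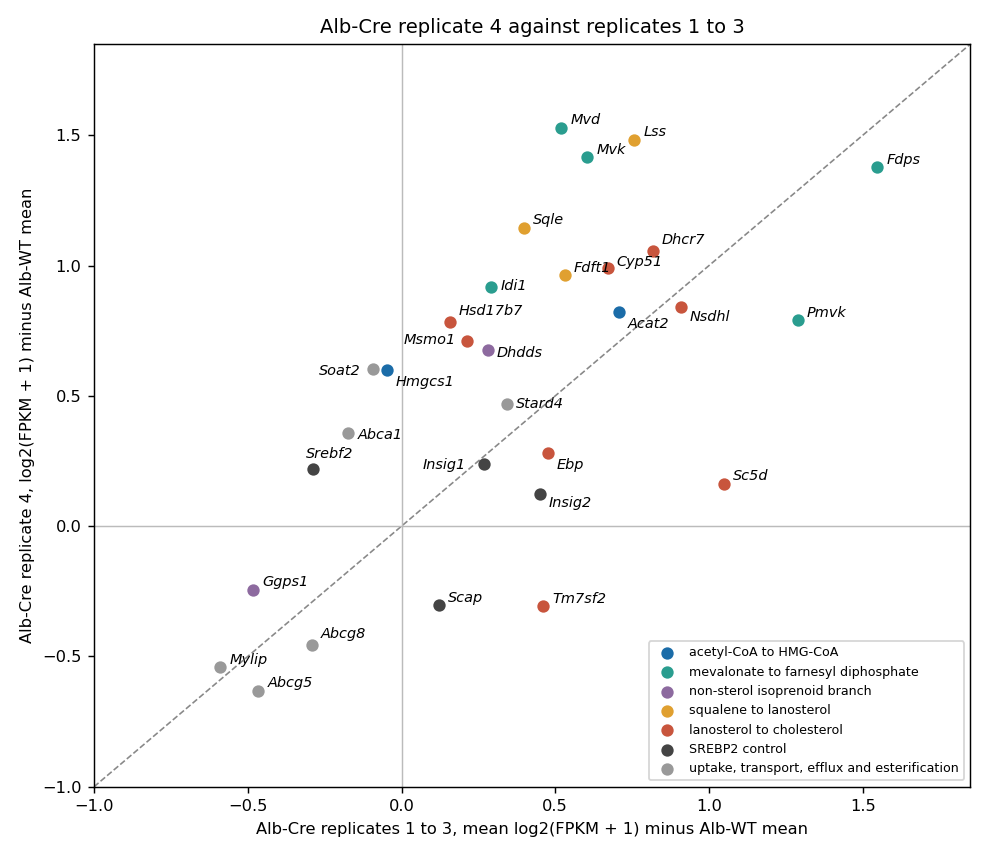
Each of the 30 genes as the log2(FPKM + 1) difference from the Alb-WT mean in Alb-Cre replicates 1 to 3 (horizontal, their mean) and in Alb-Cre replicate 4 (vertical), coloured by step. On the dashed line both are equal. Mvd, Mvk, Lss and Sqle lie above it and Sc5d, Tm7sf2 and Pmvk below it. Srebf2, Abca1, Hmgcs1 and Soat2 are below 0 for replicates 1 to 3 and above 0 for replicate 4, and Tm7sf2 and Scap are the reverse.

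Further cholesterol genes, from a list of 44 that are not members, were described in the same fit. Of the 42 tested, 6 rose, 9 fell and 27 were not called, which is 14.3% higher and 21.4% lower beside 8.48% and 23.3% of all tested rows. The share that fell was thus near that of all rows. Some of those that rose supply acetyl units. Acly makes cytosolic acetyl-CoA from citrate. Acly stood at 70.4, 66.4, 71.5 and 43.8 FPKM in Alb-Cre and 29.1, 28.5, 29.4 and 29.5 FPKM in Alb-WT. Acss2 makes it from acetate. Acss2 stood at 31.1, 30.6, 31.7 and 10.5 FPKM in Alb-Cre and 8.59, 8.38, 8.79 and 8.49 FPKM in Alb-WT. Aacs makes acetoacetyl-CoA from ketone bodies. Aacs stood at 9.27, 7.68, 8.17 and 7.11 FPKM in Alb-Cre and 4.01, 2.73, 3.57 and 3.47 FPKM in Alb-WT. All 3 were higher in every Alb-Cre library, by 2.16-fold (log2 fold change 1.06, SE 0.144, limma adjusted p = 0.00185), 3.03-fold (log2 fold change 1.38, SE 0.308, limma adjusted p = 0.0133) and 2.34-fold (log2 fold change 1.03, SE 0.108, limma adjusted p = 0.000521), and replicate 4 held the lowest Alb-Cre value of each, near Alb-WT for Acss2. Without replicate 4 the log2 fold changes were 1.22 (limma adjusted p = 1.01e-08), 1.75 (limma adjusted p = 9.26e-10) and 1.08 (limma adjusted p = 6.87e-06). Cyb5r3, Erg28 and Coq2 also rose, with log2 fold changes of 0.42, 0.28 and 0.33, or 0.47, 0.29 and 0.31 without replicate 4. The call for Erg28 was lost without Alb-Cre replicate 1 or 3 or Alb-WT replicate 2, 3 or 4 (limma adjusted p = 0.0505 to 0.0534), and that for Coq2 without Alb-Cre replicate 1 or 3 or Alb-WT replicate 1 or 3 (limma adjusted p = 0.0563 to 0.0758). Both were also lost after scaling to a common FPKM sum.

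The 9 that fell, a share near that of all rows, included Cyp7a1, a gene of sterol catabolism, and genes of lysosomal release and lipoprotein exchange. Cyp7a1 encodes the enzyme that starts bile acid synthesis. Cyp7a1 stood at 6.68, 7.74, 7.94 and 0.808 FPKM in Alb-Cre and 27.5, 28.0, 27.1 and 24.6 FPKM in Alb-WT. It was 4.63-fold lower (log2 fold change -2.27, SE 0.462, limma adjusted p = 0.00943), and replicate 4 was far below even the other Alb-Cre libraries. Without it the log2 fold change was -1.72 (limma adjusted p = 1.53e-08). Npc1 and Npc2, which move cholesterol out of lysosomes, fell by 0.48 and 0.64, the lysosomal lipase gene Lipa by 0.39, the HDL receptor gene Scarb1 by 0.41 and the exporter gene Abcg1 by 0.92 on the log2 scale. Without replicate 4 the log2 fold changes of Npc1, Npc2, Lipa, Scarb1 and Abcg1 were -0.47, -0.79, -0.32, -0.51 and -1.19. For Abcg1 the groups overlapped, with 0.664 to 0.802 FPKM in Alb-Cre replicates 1 to 3, 2.63 FPKM in replicate 4 and 2.58 to 3.37 FPKM in Alb-WT. Npc2, Lipa and Abcg1 are also expressed by macrophages, whose marker levels are given above, and the part of those cells was not tested. Calls were lost for Scarb1 and Abcg1 without each of 5 single libraries, Alb-Cre replicates 1 to 3 and Alb-WT replicates 3 and 4 (limma adjusted p = 0.0519 to 0.058 and 0.0564 to 0.0619), and for Lipa with median-of-ratios scaling (limma adjusted p = 0.259). The call for Lipa was also lost with voom and after the length correction, and that for Scarb1 after the length correction. Without Alb-Cre replicate 4, 7 of the 42 genes were called higher and 21 lower, beside 15.2% and 46.1% of all tested rows.

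Set against the enzymes, the regulators and transport genes were spread about 0. Enzymes ranged from -0.42 to 1.50 with 19 of 20 above 0, and the regulators and transport genes from -0.58 to 0.37 with 5 of 10 above 0. Known LXR targets among the members (Abca1, Abcg5, Abcg8 and Mylip, grouped after their values were seen) had log2 fold changes of -0.04, -0.51, -0.33 and -0.58. Abca1 was not called, and LXR targets outside the members were not grouped. The SREBP2 targets Insig1 and Stard4 had 0.26 and 0.37. Hmgcs1, a synthesis gene and the only member with TCACNCCAC in its stretch, had 0.11 and was not called. The activity of LXR or SREBP2 was not tested. Enzymes and the other members were of similar level, the median being 18.0 FPKM for enzymes and 13.6 FPKM for the others in Alb-WT. The difference between these lists was described and not tested, since members were chosen with results of these data known.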

How the data were processed

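Bulk RNA-seq of mouse liver was analysed as 1 table of 8 libraries, 4 per genotype, grouped by the labels. FPKM values were deposited by the authors as fragments scaled by gene length and library size, with no further scaling between libraries. HISAT2 2.0.5 is listed in the submitters' processing notes, which name mm39 and hg38 with no role. The sources used here do not give the counting tool, annotation or strand setting, so reads of overlapping genes may be split or shared.

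All 13703 rows came out as whole fragments (tolerance 1e-08, scaled by the square root of the row's largest number), and depth was taken from these. Rows whose mean over the 8 libraries reached 0.5 FPKM were tested with limma 3.58.1 in R 4.3.3, using an intensity trend on log2(FPKM + 1), with genotype as the only term and Benjamini-Hochberg adjustment over all 11077 rows. The code was tested on simulated libraries with known changes in both directions and no library apart from its group. That test does not show how the fit behaves with a library like Alb-Cre replicate 4. Alternatives were a pseudocount of 0.1, no filter, a mean of at least 5 FPKM, other scalings, limma-voom with TMM scaling on the recovered fragments, the replicate number as a block, each library left out in turn and, added after seeing the data, a gene length correction.

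The members and lists were chosen with earlier results of these data known. Per-library values are given for called members, SREBP2 control genes and efflux genes, and other members appear by their ranges, except that Hmgcs1, not called, was given in full after its values were seen. Of the other cholesterol genes, up to 6 with the smallest p in each direction are named, and some genes of the list are not reported here by name. The rule for printing promoters (called enzymes holding TCACNCCAC) gave none, so those shown were chosen after seeing the data. Exon overlaps were read from GENCODE M21.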

Additional observations from a re-analysis of the deposited data

Results flagged for a closer look

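In 60 groups of 4 libraries (30 members in each genotype) the highest or lowest library was set against the other 3 by the ratio of its gap to the nearest library over the whole range, at Dixon's 95% critical value. Chance marks about 1 group in 20. The groups come from the same 8 libraries and are not independent, so this rate gives no expected number of marks. Of the 10 groups marked, all were of Alb-Cre, and in each the library that stood apart was replicate 4.

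Replicate 4 was high for 7 genes. It held 148 FPKM of Hmgcs1, 18.8 FPKM of Mvk, 36.3 FPKM of Idi1 and 54.7 FPKM of Fdft1. It also held 35.8 FPKM of Sqle, 12.3 FPKM of Lss and 18.6 FPKM of Hsd17b7. It was low for 3 genes, with 13.6 FPKM of Tm7sf2, 69.0 FPKM of Sc5d and 7.82 FPKM of Scap. No Alb-WT group was marked.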

How the results depend on the processing

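Of the 22 members called, 13 kept their call in all alternatives that tested them, 9 lost it in at least 1 and 0 changed sign. The cause of the changes below was not tested. Over all genes, 939 were called higher and 2582 lower, and the counts higher and lower were 623 and 3013 after scaling to a common FPKM sum, 1874 and 1516 with median-of-ratios scaling, 1522 and 1478 with quantile normalization, 1652 and 1819 with voom, and 1629 and 1325 after the length correction. With a mean of at least 5 FPKM 981 were lower, 2 members among them, and 5 other cholesterol genes. Leaving out 1 library gave 546 to 1679 higher and 1205 to 5112 lower (both highest without Alb-Cre replicate 4), with 3 to 5 regulators and transport genes and 4 to 21 other cholesterol genes lower. The length correction left 2 members lower. The enzyme median was 0.88 with median-of-ratios scaling, 0.86 with voom and 0.525 to 0.715 with 1 library left out. The median of the regulators and transport genes turned from -0.01 to 0.014 with a mean of at least 5 FPKM, 0.168 with median-of-ratios scaling, 0.056 with quantile normalization, 0.138 with voom and 0.158 after the length correction, and ranged from -0.133 to 0.0035 with 1 library left out. Members not called changed sign as follows. Hmgcs1 was at -0.022 with quantile normalization, and between -0.048 (without Alb-Cre replicate 4) and 0.176 with 1 library left out. Srebf2 was at 0.013 with median-of-ratios scaling and 0.026 after the length correction. Scap was at -0.066 after scaling to a common sum and, with 1 library left out, between -0.035 and 0.120. Abca1 was at 0.141, 0.015, 0.106 and 0.164 with median-of-ratios scaling, quantile normalization, voom and the length correction, and between -0.173 and 0.028 with 1 library left out. Soat2 was at -0.00092 after scaling to a common sum, and between -0.094 (without Alb-Cre replicate 4) and 0.185 with 1 library left out. With the replicate number as a block 613 genes were higher and 1631 lower, 16 and 3 members among them, and Idi1, Ggps1 and Dhdds lost their calls (limma adjusted p = 0.072, 0.0588 and 0.0554). Same-numbered libraries did not deviate together (correlations of -0.065, -0.054, -0.097 and 0.013, none the best of its row). With so few libraries, and replicate 4 apart within Alb-Cre, these correlations cannot decide whether the numbers pair samples. Members had at least 258 fragments in a library, and counting error was not separated from the spread between libraries.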
